A study of Mus musculus with 6 samples.

Results

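Of the 32285 genes in the table, 10 were described here: Il1rl1, Il18r1, Il1r2, Il6ra, Il6st, Il10ra, Il21r, Il4ra, Il27ra and Il12rb1. They were taken by symbol from a list of interleukin receptor chains known from Tregs of nonlymphoid tissues, with no cutoff on measured values, and each symbol was found; earlier results of these data were known when the list was made. The cells themselves came from the spleen. Bulk RNA-seq was performed on CD4+CD25+ splenic Tregs of C57BL/6 mice, with 3 libraries from ERCre mice (WT) and 3 from ERCre Zfp335fl/fl mice (KO), to compare gene expression with and without the zinc finger protein Zfp335. By the methods given for the study, mice of both groups carried Cre recombinase fused to a modified estrogen receptor, were 6 weeks old at the first of 3 tamoxifen injections (100 μL at 10 mg/mL on days 1, 3 and 5) and were killed on day 7. In the labels, the WT animals are named as littermates of wild type, and tamoxifen is not mentioned. Tamoxifen activates the fusion protein, and no restriction of it to Tregs is described. Deletion in other cell types was not measured here.

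Interleukin receptors are built from a ligand-specific chain and a chain that several receptors share. Receptors of the IL-1 family signal through MyD88 and IRAK kinases, and Il1r2 encodes a decoy that binds IL-1 without signaling. The receptors for IL-6, IL-27, IL-12, IL-10, IL-21 and IL-4 signal through Janus kinases and STAT factors. In Tregs of nonlymphoid tissues, the IL-33 receptor encoded by Il1rl1 is known for marking cells with tissue repair functions, and IL-10 and IL-27 receptors are known for their part in suppression.

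The libraries held between 133283969 and 209041812 counts. Expression is reported in CPM, which relates the count of a gene to the size of its library after scaling by edgeR's TMM method. Zfp335 was 120.1 ± 4.67 CPM in WT against 14.8 ± 0.451 CPM in KO (SD, n = 3 libraries per group), a log2 fold change of -3.02 (edgeR adjusted p = 1.2e-13). Foxp3, the defining factor of Tregs, was 1136 ± 17.4 CPM in WT against 1052 ± 9.24 CPM in KO, and Il2ra, Cd4 and Cd3e were also counted at high levels in each library. RNA of other cells differed between the groups, with summed red cell markers of 36.6 to 43.5 CPM in WT and 1.81 to 2.32 CPM in KO, and summed neutrophil markers of 20.7 to 27.8 and 1.43 to 2.31 CPM. Xist, an RNA of the inactive X chromosome, was 0.272 CPM in WT against 134.6 CPM in KO, while 4 Y-linked genes were counted in all 6 libraries, so sex and genotype cannot be told apart. The labels do not state that the libraries came from separate animals, and the p-values measure only the spread between these samples.

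Zfp335-deficient Tregs had more RNA for the IL-1 decoy receptor Il1r2 and less for the IL-10 receptor chain Il10ra and the IL-33 receptor Il1rl1, with smaller differences in most other chains. A gene was called at an adjusted p under 0.05 in edgeR's quasi-likelihood test over the 17307 genes tested. All 10 receptor genes passed the filter on low counts, 3 rose in KO (Il1r2, Il6st and Il21r) and 5 fell (Il10ra, Il1rl1, Il12rb1, Il18r1 and Il6ra). Of all genes tested, 24.1% were called, 12.0% higher and 12.1% lower. Each of the 10 receptors had an average log2 CPM above 4, and of the 7618 genes at or above that level 33.3% were called. The median log2 fold change of the 10 genes was -0.051, against -0.0042 for all genes tested, and their median absolute log2 fold change was 0.156, against 0.154. Over the 7618 genes at or above an average log2 CPM of 4, the median log2 fold change was 0.015 and the median absolute log2 fold change was 0.0873. The study gives cutoffs for DESeq2 in its methods for bulk RNA-seq, which describe Tregs of Foxp3Cre mice and not these ERCre libraries. They are a change of 1.5-fold or more with an unadjusted p under 0.05 and an adjusted p under 0.1. When they were applied here to the edgeR fit, only Il1r2 was past them, and 6.95% of all genes tested were. In bulk RNA, fewer cells of a type and less RNA per cell cannot be told apart. RNA of other cells differed between the groups, and its part was not tested for any of the 10 genes.

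**Figure D1:**
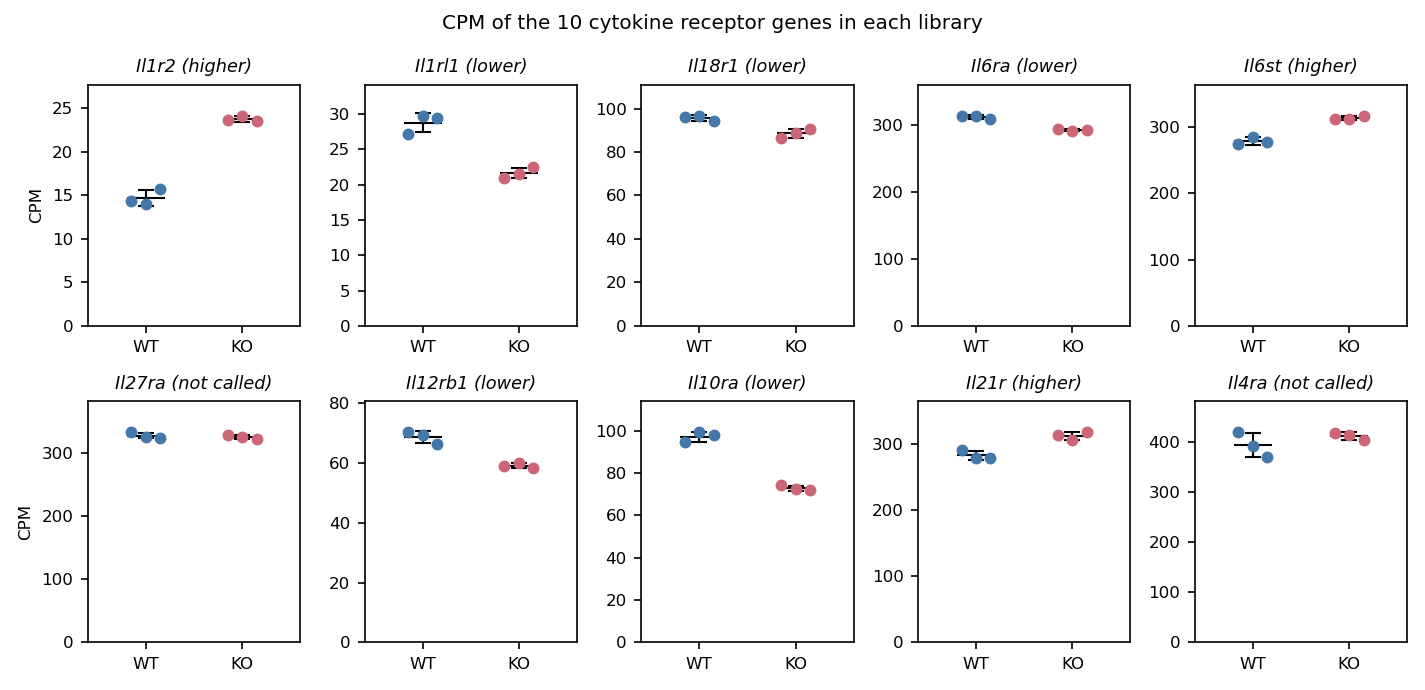
CPM of each receptor gene (vertical axes, from 0) in the 3 WT (blue) and 3 KO (red) libraries; the bars give the mean and SD of each group, and the titles give the edgeR call in KO. The KO libraries of Il1r2 sit between 23.5 and 24.1 CPM, above the WT libraries at 14.0 to 15.8 CPM, those of Il1rl1 and Il10ra sit below WT, and the groups overlap for Il27ra and Il4ra.

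Il1r2 encodes the decoy receptor for IL-1 and lies on the plus strand of chromosome 1 of GRCm38 (chr1:40074079-40125231). It was 14.4, 14.0 and 15.8 CPM in WT replicates 1 to 3 and 23.6, 24.1 and 23.5 CPM in KO replicates 1 to 3. Every KO library was above every WT library, by more than the spread within either group. The mean rose from 14.7 ± 0.909 to 23.7 ± 0.309 CPM (SD, n = 3), a log2 fold change of 0.70 (standard error, SE, 0.056, 95% confidence interval 0.58 to 0.82, edgeR adjusted p = 1.15e-06). This was the largest change among the 10 receptors in either direction. Neutrophils, which are known to express Il1r2, had lower summed markers in KO, as given above. Of the 8 monocyte and macrophage markers 3 were called higher (Vcam1, C1qb and C1qa, with log2 fold changes of 0.90, 0.68 and 0.60) and 3 lower (Cd14 at -1.63, Lyz2 at -1.43 and Itgam at -0.78). The part of these cells in the Il1r2 result, and in that of Il1rn below, was not tested. Il1r1, the signaling receptor for IL-1, was 10.2 ± 0.718 CPM in WT against 10.7 ± 0.296 CPM in KO and was not called (log2 fold change 0.080, edgeR adjusted p = 0.461). The receptor antagonist gene Il1rn fell, from 1.66 ± 0.467 to 0.955 ± 0.208 CPM (log2 fold change -0.81, edgeR adjusted p = 0.0196). It was the only one of the 5 tested genes among the other IL-1 receptor family genes to be called. By edgeR 0 of the 5 rose, with 1 at an unadjusted p under 0.05, and DESeq2 called 1 higher.

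Il1rl1 encodes ST2, the receptor chain for IL-33, and lies on the same strand at chr1:40429570-40465415. It was 27.2, 29.7 and 29.5 CPM in the WT libraries and 21.0, 21.5 and 22.4 CPM in the KO libraries. The groups did not overlap, and WT replicate 1 was the WT library closest to KO. The mean fell by 24.8%, from 28.8 ± 1.38 to 21.6 ± 0.739 CPM (log2 fold change -0.41, SE 0.052, 95% confidence interval -0.52 to -0.30, edgeR adjusted p = 7.97e-05). The table has a single count per gene, so RNA of the membrane and soluble forms of ST2, which start at different sites, was not separated. Il1rap, the signaling chain that ST2 shares with the IL-1 receptor, was 15.3 ± 0.543 CPM in WT against 13.7 ± 0.976 CPM in KO and was not called (log2 fold change -0.16, edgeR adjusted p = 0.0945). Mast cells and basophils also carry ST2. Of their 8 listed markers, Fcer1a, Ms4a2 and Tpsb2 were at 0 in at least 4 of the 6 libraries and were not tested, and the summed markers were 8.02 to 8.82 CPM in WT and 8.87 to 9.96 CPM in KO. Most of that sum was Kit, which rose from 7.71 ± 0.432 to 9.10 ± 0.469 CPM (edgeR adjusted p = 0.0336). Cpa3, a protease of mast cell granules, was at 0 in 1 KO library and at most 0.186 CPM in any library. The log2 fold changes were -1.46 for Cpa3, -0.75 for Gata2, -0.59 for Mcpt8 and 0.39 for Cma1. None of these was called, and each was at most 0.320 CPM in any library. The part of mast cells and basophils in the Il1rl1 result was not tested.

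Il18r1, the ligand-binding chain for IL-18, starts 136 bases after the end of Il1rl1 (chr1:40465552-40500854). It was 96.0, 96.6 and 94.2 CPM in WT and 86.6, 88.6 and 90.7 CPM in KO. The groups were separate but close, and the decrease was small next to that of Il1rl1. The mean fell by 7.31%, with a log2 fold change of -0.11 (SE 0.035, edgeR adjusted p = 0.036). Without WT replicate 2 or any 1 of the KO replicates the gene was no longer called, with adjusted p values between 0.0568 and 0.159. Il18rap, the second chain of the IL-18 receptor, was 17.8 ± 0.766 CPM in WT against 17.3 ± 0.833 CPM in KO and was not called (log2 fold change -0.046, edgeR adjusted p = 0.631). NK cells carry IL-18 receptors too, and their summed markers were 25.3 to 26.2 CPM in WT and 21.4 to 23.1 CPM in KO, with 3 of 6 lower and 0 higher by edgeR, also at an unadjusted p under 0.05 and by DESeq2. Their part in the Il18r1 result was not tested.

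Il1r2, Il1rl1 and Il18r1 belong to a single cluster of IL-1 family receptor genes that spans 477.6 kb of chromosome 1, and the genes of this cluster did not change together. In order along the chromosome, the log2 fold changes were 0.70 for Il1r2, 0.080 for Il1r1, -0.21 for Il1rl2, -0.41 for Il1rl1, -0.11 for Il18r1 and -0.046 for Il18rap. The gene at one end rose, a pair in the middle of the row fell, and Il1r1, Il1rl2 (edgeR adjusted p = 0.344) and Il18rap were not called. Map4k4, a kinase gene before Il1r2, rose from 352.5 ± 14.6 to 390.0 ± 2.37 CPM (log2 fold change 0.15, edgeR adjusted p = 0.00875). Slc9a4, the gene after Il18rap, was at 0 in 3 libraries and was not tested.

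**Figure D2:**
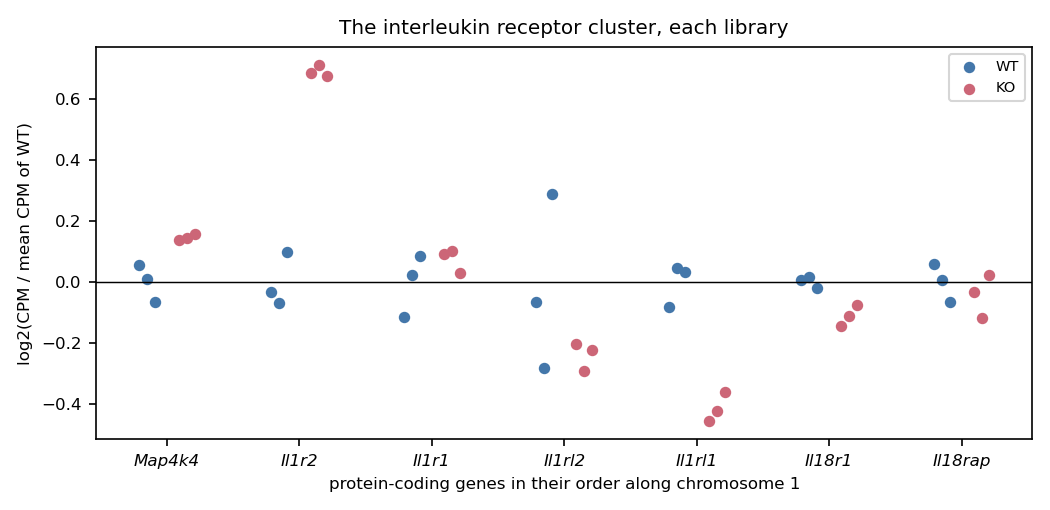
Log2 of the CPM in each library over the mean CPM of WT (vertical axis) for the tested genes in their order along the receptor cluster of chromosome 1, with WT in blue and KO in red. The KO libraries of Il1r2 lie above all WT libraries and those of Il1rl1 below them, while the libraries of Il1r1, Il1rl2 and Il18rap overlap.

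The promoters of the receptor genes that differed most within this cluster are shown because their starts lie on the same strand of the same cluster and their RNA moved in opposite directions. RefSeq promoter sequences of GRCm38.p6, each from 250 bases before to 50 bases after an annotated start, were found for 7 of the 10 genes. The 3 motifs were searched on both strands, namely AGATAA for the GATA family, TTCNNNGAA for the STAT family and TGANTCA for AP-1, and no match of one motif overlapped a match of another. Capitals mark the matches. The promoter sequence of Il1r2 spans chr1:40085843-40086142 on the plus strand and holds 1 match to TTCNNNGAA. Its RefSeq start lies 12.0 kb inside the annotated gene. The promoter sequences of Il1rl1 span chr1:40429320-40429619 and chr1:40439379-40439678 on the plus strand, and their RefSeq starts are 10.1 kb apart. Each sequence holds 1 match to AGATAA, the second on the other strand.
Il1r2: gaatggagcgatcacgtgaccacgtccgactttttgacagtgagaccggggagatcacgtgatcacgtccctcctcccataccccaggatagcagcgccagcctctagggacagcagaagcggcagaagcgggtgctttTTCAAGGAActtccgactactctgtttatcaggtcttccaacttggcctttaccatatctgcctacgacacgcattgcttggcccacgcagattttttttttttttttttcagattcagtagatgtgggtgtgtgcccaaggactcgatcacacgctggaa
Il1rl1, first start: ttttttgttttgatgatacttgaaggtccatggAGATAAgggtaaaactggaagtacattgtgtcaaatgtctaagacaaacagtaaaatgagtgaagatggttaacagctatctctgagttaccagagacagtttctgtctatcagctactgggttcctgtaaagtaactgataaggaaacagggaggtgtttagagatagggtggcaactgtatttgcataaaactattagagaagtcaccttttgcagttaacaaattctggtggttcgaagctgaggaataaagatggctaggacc
Il1rl1, second start: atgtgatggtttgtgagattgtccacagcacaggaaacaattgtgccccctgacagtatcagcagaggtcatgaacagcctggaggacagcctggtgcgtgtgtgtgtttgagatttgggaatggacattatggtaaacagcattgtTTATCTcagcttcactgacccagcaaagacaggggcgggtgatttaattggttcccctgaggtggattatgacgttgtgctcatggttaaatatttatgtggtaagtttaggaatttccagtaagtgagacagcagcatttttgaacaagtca

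Among the 7 genes, AGATAA was found in Il1rl1 and Il6ra, against 12.7% of all 27025 genes searched. TTCNNNGAA was found in Il18r1 and Il1r2, against 9.55% of genes, and TGANTCA in none of the 7, against 8.97% of genes. Il10ra, Il27ra and Il12rb1 were not searched. A match is a stretch of letters only, and whether any factor binds there was not measured.

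Il6ra and Il6st, the chains of the IL-6 receptor, differed in opposite directions, so that the shared signaling chain gp130 rose while the ligand-binding chain fell. Il6st, which encodes gp130, lies at chr13:112464070-112510086 on the plus strand and was 273.8, 285.6 and 277.4 CPM in WT and 312.6, 311.7 and 316.7 CPM in KO. The groups did not overlap, and the KO libraries were closer to each other than the WT libraries were. The mean rose from 278.9 ± 6.07 to 313.7 ± 2.66 CPM (SD, n = 3), a log2 fold change of 0.17 (SE 0.031, 95% confidence interval 0.10 to 0.24, edgeR adjusted p = 0.00157). Il6ra, on the minus strand at chr3:89864059-89913196, was 313.5, 313.8 and 309.2 CPM in WT and 294.8, 292.0 and 292.9 CPM in KO. All KO libraries were lower, but the decrease was the smallest called among the 10 genes. The mean fell by 6.06%, with a log2 fold change of -0.090 (SE 0.030, edgeR adjusted p = 0.0424). Without WT replicate 2 or any 1 of the KO replicates Il6ra was no longer called, with adjusted p values between 0.115 and 0.167. On the other strand Gm42809 overlaps 2.8% of the exon bases of Il6ra, and the strand used in counting is not given in the sources used here.

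Il27ra, which pairs with gp130 to bind IL-27, lies on the minus strand at chr8:84030294-84042589. It was 331.8, 325.2 and 323.7 CPM in WT and 327.1, 325.3 and 320.9 CPM in KO. The groups overlapped, and no difference larger than the spread between libraries was found. The log2 fold change was -0.011 (SE 0.030, edgeR adjusted p = 0.841), and its 95% confidence interval of -0.077 to 0.055 bounds a change in either direction. Palm3, whose exons overlap those of Il27ra by 2 bases on the other strand, was 24.5 CPM in WT replicate 3 and 44.2 to 47.0 CPM in the other 5 libraries, whereas Il27ra in that replicate was close to its level in the others.

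Il12rb1, the chain shared by the receptors for IL-12 and IL-23, lies on the plus strand at chr8:70808449-70821424. It was 70.1, 69.4 and 66.3 CPM in WT and 58.9, 59.9 and 58.1 CPM in KO. The KO libraries were all below the WT libraries. The mean fell by 14.0%, from 68.6 ± 1.995 to 59.0 ± 0.909 CPM (log2 fold change -0.22, SE 0.038, edgeR adjusted p = 0.000957). The specific chains were far lower in counts, at 2.12 ± 0.228 CPM in WT and 2.46 ± 0.320 CPM in KO for Il12rb2 and 1.92 ± 0.315 and 1.78 ± 0.0676 CPM for Il23r. Neither was called (edgeR adjusted p = 0.291 and 0.647).

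Il10ra, the ligand-binding chain for IL-10, showed the largest decrease among the 10 genes. It lies on the minus strand at chr9:45253837-45269149 and was 94.5, 99.2 and 97.9 CPM in WT and 74.2, 72.3 and 71.9 CPM in KO. The lowest WT library was well above the highest KO library. The mean fell by 25.1%, from 97.2 ± 2.42 to 72.8 ± 1.19 CPM (SD, n = 3), a log2 fold change of -0.42 (SE 0.036, 95% confidence interval -0.49 to -0.34, edgeR adjusted p = 2.26e-06). The confidence intervals of Il10ra and Il1rl1 overlap, so their decreases were not distinguished in size. Il10rb, the second chain of the IL-10 receptor, also fell, from 50.1 ± 0.363 to 46.0 ± 0.572 CPM (log2 fold change -0.12, edgeR adjusted p = 0.029). Il10, the ligand gene, rose from 19.9 ± 0.860 to 37.7 ± 1.24 CPM (log2 fold change 0.93, edgeR adjusted p = 3e-08). Macrophages and B cells also carry IL-10 receptors. Summed monocyte and macrophage markers were 45.8 to 50.3 CPM in WT and 39.2 to 42.1 CPM in KO, with 3 of 8 higher and 3 lower, and summed B cell markers were 60.9 to 67.1 and 28.6 to 30.3 CPM, with 8 of 8 lower. Their part in the Il10ra result was not tested.

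Il4ra and Il21r, which both pair with the common gamma chain, are neighbors on chromosome 7 with 24.0 kb between them, and only Il21r was called. Il21r, the receptor chain for IL-21 (chr7:125603429-125633570, plus strand), was 290.6, 279.6 and 278.6 CPM in WT and 313.6, 306.2 and 317.5 CPM in KO. Every KO library was above every WT library. The mean rose from 282.9 ± 6.70 to 312.4 ± 5.75 CPM (log2 fold change 0.14, SE 0.033, edgeR adjusted p = 0.00617). Il4ra, the chain for IL-4 and IL-13 (chr7:125552120-125579474, plus strand), was 418.2, 390.7 and 370.2 CPM in WT and 417.2, 413.0 and 402.5 CPM in KO. WT replicate 1 was at the level of the highest KO library, and the WT libraries were spread more widely in CPM than those of the other 9 receptors. The log2 fold change of 0.064 (SE 0.041, 95% confidence interval -0.026 to 0.15, edgeR adjusted p = 0.308) was within that spread. Without WT replicate 1 it was 0.11 and was called (edgeR adjusted p = 0.017). Of the exon bases of Il4ra, 9.51% are shared with Gm44876 on the other strand. The common gamma chain Il2rg fell, from 683.9 ± 12.8 to 638.0 ± 10.4 CPM (log2 fold change -0.10, edgeR adjusted p = 0.0326), and Il13ra1, the alternative partner of Il4ra, was at most 1.06 CPM in each library and was not called (edgeR adjusted p = 0.125).

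For the 8 called genes, the CPM of the groups did not overlap (exact permutation test of log2 CPM, two-sided p = 0.1 for each gene, the smallest that 3 against 3 libraries allow). Such separation was found for 38.3% of all genes tested. The same exact permutation test gave p = 0.4 for Il4ra and p = 0.6 for Il27ra.

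Of the 10 listed partner chains, 9 were tested and 2 fell (Il10rb and Il2rg), while 24.1% of all genes tested were called. By edgeR 0 rose, also at an unadjusted p under 0.05, and 0 were called higher by DESeq2 or limma-voom. The lowest were Lifr, at 0.356 ± 0.0609 CPM in WT and 0.245 ± 0.0828 CPM in KO (edgeR adjusted p = 0.314), and Osmr, which was at most 0.0879 CPM in any library, at 0 in 1 of them and not tested. Both pair with gp130. Il11ra1, the chain for IL-11, was 12.0 ± 0.379 CPM in WT against 11.7 ± 0.290 CPM in KO and was not called (edgeR adjusted p = 0.774).

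**Figure D3:**
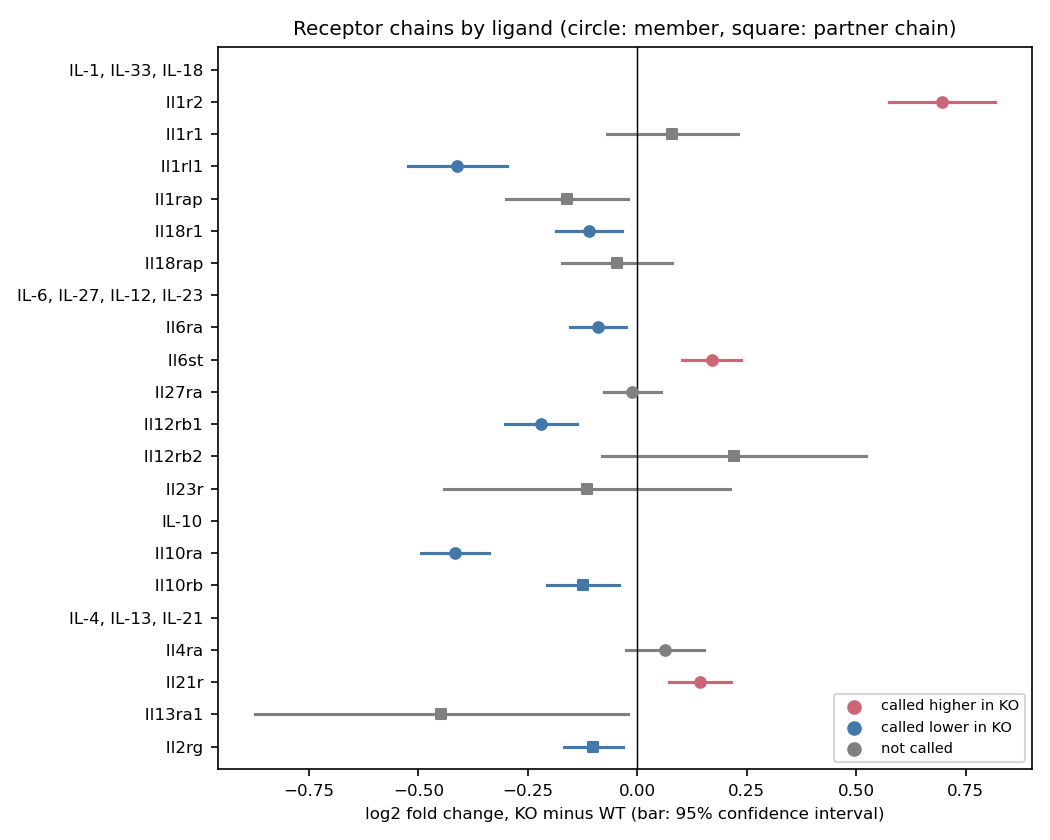
Log2 fold changes of KO against WT (horizontal axis) with 95% confidence intervals for the receptor genes (circles) and the chains they pair with (squares), grouped by ligand. Il1r1 is also drawn as a square, although it is a receptor separate from the decoy Il1r2 and not its partner chain. Red marks genes called higher, blue genes called lower and grey genes not called by edgeR; Il1r2 at 0.70 stands to the right of all others, and Il10ra and Il1rl1 are the leftmost called genes.

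The balance between the chains of a receptor was compared in each library as the log2 ratio of their CPM. For IL-1, the pair was the signaling receptor and the decoy, which are separate receptors and not chains of a single receptor. Because CPM are not corrected for gene length, only the change of a ratio is described and not its level. For the IL-6 receptor, the log2 ratio of Il6st over Il6ra was -0.20, -0.14 and -0.16 in WT and 0.085, 0.094 and 0.11 in KO, a difference of 0.26. For the IL-10 receptor, the ratio of Il10rb over Il10ra differed by 0.29, from -0.96 ± 0.036 to -0.66 ± 0.0063 (SD, n = 3). These ratios moved toward the shared chain. For IL-21, the ratio of Il2rg over Il21r moved the other way, from 1.27 ± 0.018 to 1.03 ± 0.019, and for IL-4 that of Il2rg over Il4ra moved from 0.80 ± 0.062 to 0.63 ± 0.050. The largest shift was that of the signaling IL-1 receptor over the decoy, Il1r1 over Il1r2, from -0.53 ± 0.088 to -1.15 ± 0.029. Of 11 ratios compared, 9 did not overlap between groups (exact permutation test, two-sided p = 0.1 for each, 0.122 after Benjamini-Hochberg adjustment), and those of Il18rap over Il18r1 and of Il23r over Il12rb1 overlapped (p = 0.2 and 0.6). With 3 libraries per group, none of these tests could reach 0.05. The share of other gene pairs with such separation was not computed. Several chains recur among the ratios and most ratios hold a called gene, so this count is not independent of the single-gene calls.

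**Figure D4:**
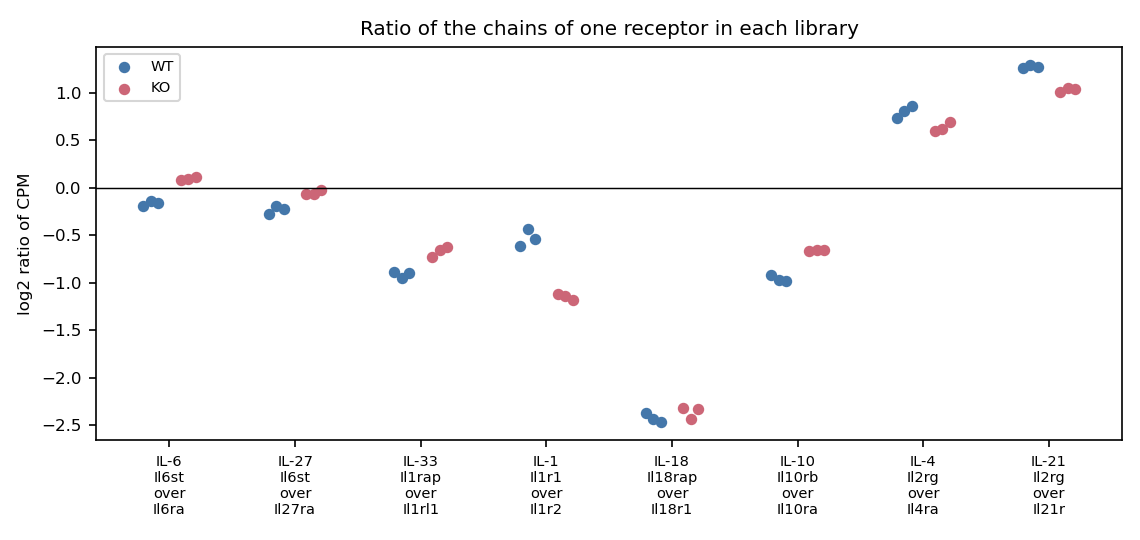
Log2 ratio of the CPM of paired genes (vertical axis) in each WT (blue) and KO (red) library, for the 8 pairs without Il12rb2, Il23r or Il13ra1. The pairs are chains of a receptor, except for IL-1, where the signaling receptor and the decoy are separate receptors. The KO libraries lie above WT for IL-6, IL-27, IL-33 and IL-10, below WT for IL-1, IL-4 and IL-21, and overlap with WT for IL-18.

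Levels of different receptors were compared as CPM per kilobase of exon. In WT, Il27ra was highest at 93.5 ± 1.22 CPM per kb, followed by Il21r at 85.1 ± 2.02 and Il4ra at 65.5 ± 4.005 CPM per kb. The middle of the order was held by Il6ra at 36.1 ± 0.302, Il10ra at 27.8 ± 0.691 and Il6st at 25.1 ± 0.547 CPM per kb. Below them were Il18r1 at 19.8 ± 0.251, Il12rb1 at 16.7 ± 0.486, Il1r2 at 7.71 ± 0.477 and Il1rl1 at 4.18 ± 0.200 CPM per kb, so that the highest level was 22.4 times the lowest. No neighbors in this order overlapped between their WT libraries. The genes with the largest percent changes, Il1r2, Il10ra and Il1rl1, included the lowest pair in this order. In KO, Il21r at 94.0 ± 1.73 and Il27ra at 92.8 ± 0.908 CPM per kb overlapped, and Il6st at 28.3 ± 0.239 CPM per kb was above Il10ra at 20.8 ± 0.339 CPM per kb. The order depended on the gene length used. With the longest transcript as the length, Il21r (113.2 CPM per kb) was above Il27ra (111.5), Il6st (32.1) above Il10ra (27.8) and Il12rb1 (23.9) above Il18r1 (23.0) in WT.

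Most ligands of these receptors were hardly counted in the sorted cells. Of 17 listed ligand genes, 14 were tested, 4 rose and 3 fell, while 24.1% of all genes tested were called. Il10 is given above with its receptor. Clcf1, which had the highest CPM of the listed ligands, rose from 129.1 ± 3.32 to 155.1 ± 1.03 CPM (log2 fold change 0.26, edgeR adjusted p = 6.8e-05). Lif, a ligand of gp130 receptors, rose from 14.0 ± 0.158 to 21.6 ± 0.498 CPM (log2 fold change 0.63, edgeR adjusted p = 1.48e-06), and Il21 rose from 6.88 ± 0.790 to 9.06 ± 0.710 CPM (log2 fold change 0.41, edgeR adjusted p = 0.00524). Osm, another gp130 ligand, fell from 25.3 ± 0.994 to 16.5 ± 0.313 CPM (log2 fold change -0.61, edgeR adjusted p = 1.89e-06). Lif and Osm thus differed in direction. Il1b fell from 0.366 ± 0.0772 to 0.107 ± 0.00355 CPM (edgeR adjusted p = 0.00656) and was low in both groups. RNA of other cells differed between the groups, as given above, and its part in the Il1b result was not tested. Il12a was 0.220, 0.137 and 0.193 CPM in WT and was at 0 in KO replicates 1 and 3 and at 0.0868 CPM in KO replicate 2. It counts among the 3 that fell by edgeR (adjusted p = 0.0432) but was not called by DESeq2 (adjusted p = 0.0661), which called 2 ligands lower. Il33, Il27 and Il12b were at most 0.137 CPM in any library and were not tested.

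Of the 4 Janus kinase genes, only Jak2, which serves gp130 and the IL-12 receptor, was called. It rose from 171.1 ± 2.23 to 193.9 ± 8.26 CPM (log2 fold change 0.18, edgeR adjusted p = 0.00289). The log2 fold changes of Jak1, Jak3 and Tyk2 were 0.059, 0.086 and -0.045, with edgeR adjusted p values of 0.175, 0.091 and 0.332. Among the STAT genes described here, changes went both ways. Stat5a (log2 fold change 0.22, edgeR adjusted p = 0.000199) and Stat3 (0.096, adjusted p = 0.0388), which carries signals of IL-6, IL-10 and IL-21, rose. Stat2, which carries interferon signals, fell (log2 fold change -0.29, edgeR adjusted p = 2.09e-05). Stat4, Stat5b and Stat6, the last of which carries IL-4 signals, were not called, with log2 fold changes of -0.074, 0.015 and 0.014.

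Of 15 inhibitors and feedback genes of this pathway, 5 rose, 4 fell and 6 were not called. Of all genes tested 24.1% were called, and of the 7618 genes with higher counts 33.3%. Socs3, which blocks signaling at gp130, rose from 274.7 ± 8.13 to 340.4 ± 8.20 CPM (log2 fold change 0.31, edgeR adjusted p = 2.4e-05). Other SOCS genes went both ways, with log2 fold changes of 0.20 for Socs6, 0.15 for Socs7, -0.19 for Socs2 and -0.29 for Socs4, and Pias2, an inhibitor of STAT activity, rose by 0.16. Of 12 genes of IL-1 receptor signaling, 6 rose by edgeR. By this test 0 fell, also at an unadjusted p under 0.05, and 0 were called lower by DESeq2 or limma-voom. Those that rose were Tollip, an adaptor that dampens IRAK signaling, at 0.40, Tab3 at 0.26, Traf6, the ubiquitin ligase of the pathway, at 0.23, Irak2 at 0.19, Tab1 at 0.18 and Irak1 at 0.14 on the log2 scale. The median log2 fold change of this list was 0.12, against -0.0042 for all genes tested, and the share of genes called higher was 12.0% over all genes tested and 19.7% over the 7618 genes with higher counts. Adam10 and Adam17, proteases that shed cytokine receptors, were not called by edgeR, although 1 of them had an unadjusted p under 0.05 and was called lower by DESeq2.

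**Figure D5:**
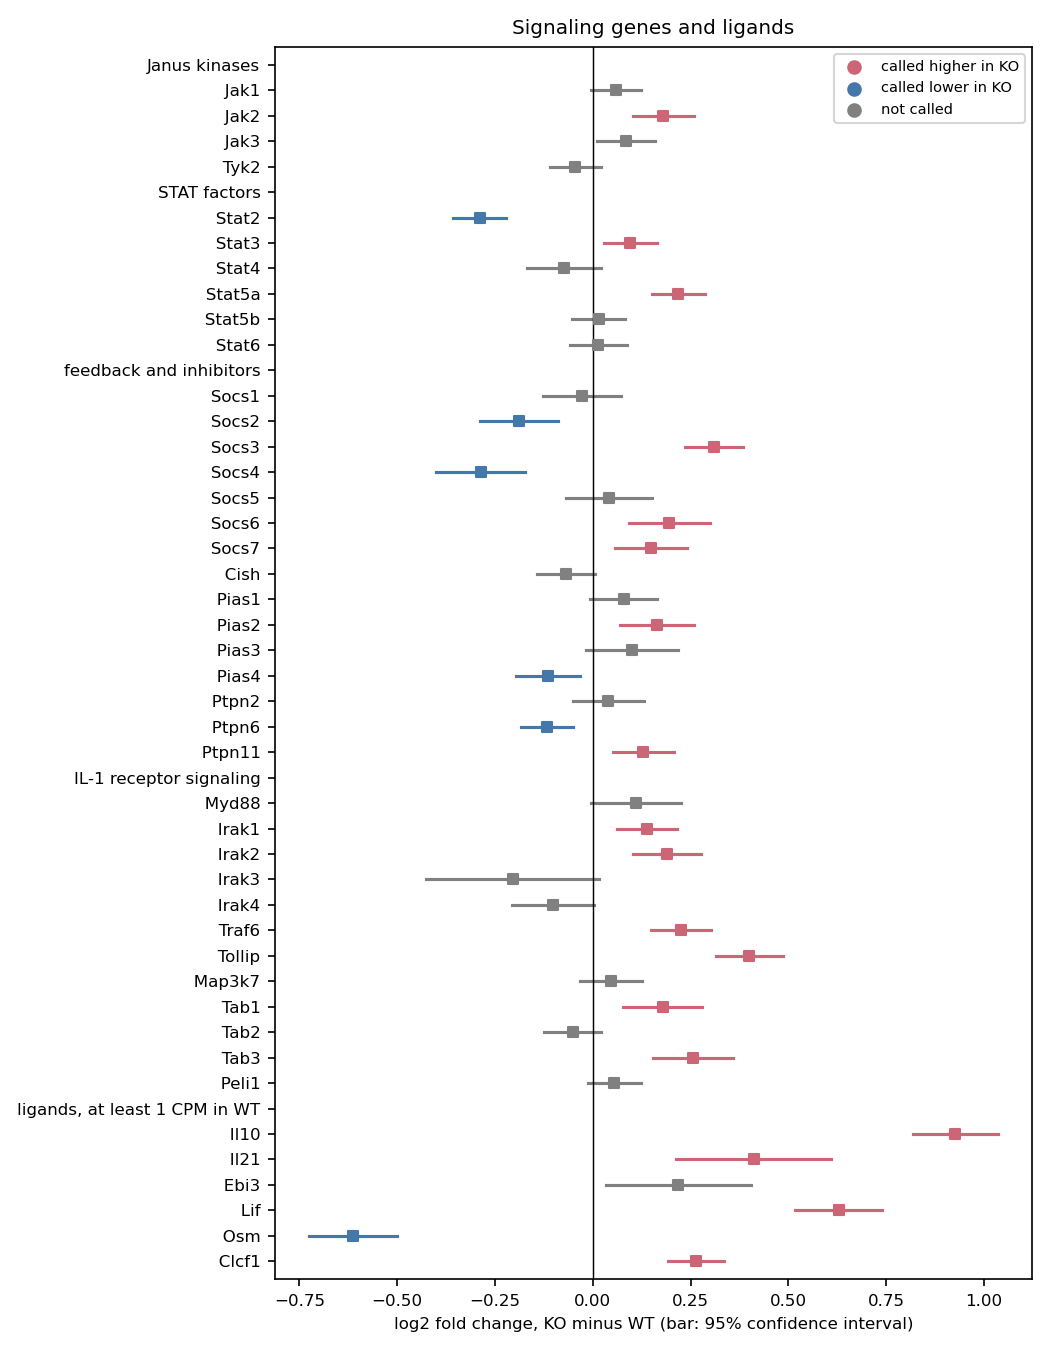
Log2 fold changes of KO against WT (horizontal axis) with 95% confidence intervals for Janus kinase, STAT, feedback and IL-1 receptor signaling genes and for ligand genes with at least 1 CPM in WT. Red marks genes called higher, blue genes called lower and grey genes not called by edgeR; called genes of the IL-1 receptor signaling list all lie to the right of 0, and called STAT and feedback genes lie on both sides.

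Among 10 genes that STAT3 is known to control, 7 rose and 1 fell, while 12.0% of all genes tested were called higher and 12.1% lower. Of the 7618 genes with higher counts, 19.7% were called higher and 13.7% lower. The list was chosen with earlier results of these data known. Those that rose include Il10 and Socs3 above and Junb, an AP-1 factor, which rose from 2647 ± 153.4 to 3823 ± 108.7 CPM (log2 fold change 0.53, edgeR adjusted p = 1.01e-06). Pim1, a survival kinase, rose by 0.47 and Bcl6, a repressor, by 0.34 on the log2 scale (edgeR adjusted p = 8.14e-07 and 0.000108), while Maf fell by 0.22 (adjusted p = 0.000807). Of 16 genes known from Tregs of nonlymphoid tissues, 8 rose and 4 fell, against 24.1% of all genes tested called in either direction and 33.3% of the 7618 genes with higher counts. The lists share 3 genes, of which 2, Il10 and Batf, rose and are counted in both. Areg, a growth factor of tissue repair, rose from 8.38 ± 0.593 to 14.99 ± 0.184 CPM (log2 fold change 0.84, edgeR adjusted p = 1.06e-06). The factor Nfil3 rose by 0.85 and the chemokine receptor Ccr8 by 0.62, whereas the chemokine receptor Cxcr3 fell by 0.49 and the integrin chain Itgae by 0.31 on the log2 scale. Klrg1 and Icos of the same list fell by 0.29 and 0.21 (edgeR adjusted p = 0.00404 and 0.00152). Il1rl1 thus fell, as did 4 genes of this list, while Areg, which is known from the same cells, was among the 8 that rose. Of 7 Treg markers, Ctla4 (log2 fold change 0.65) and Tnfrsf18 (0.12) rose, and Il2ra (-0.15) and Foxp3 (-0.11) fell.

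Receptors of other cytokine families held called genes too, while 24.1% of all genes tested were called. The 6 receptor genes of the IL-2 family had a median log2 fold change of -0.066, with 2 lower (Il9r at -0.40 and Il2ra). By edgeR and DESeq2 0 were higher, and 1 was higher at an unadjusted p under 0.05. The 9 TGF-beta family receptors had a median of 0.10, with 3 higher and 1 lower, and the 4 tested interferon receptors a median of 0.061, with Ifngr2 higher at 0.41. The difference between these groups and the 10 receptor genes was not tested.

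Genes beside the receptors were also tested. Outside the gene lists, 25 protein-coding neighbors within 2 genes on either side were tested, of which 2 rose and 4 fell. Over all genes tested 24.1% were called, so these 6 of 25 are no more than the background and nothing is read from them about the receptor genes. Near Il10ra, Tmprss13, a membrane protease gene, fell from 4.96 ± 0.372 to 1.86 ± 0.0876 CPM (log2 fold change -1.42, edgeR adjusted p = 8.66e-07). On both sides of Il4ra and Il21r, Nsmce1 fell (log2 fold change -0.13, edgeR adjusted p = 0.0482), Gtf3c1 rose (0.17, adjusted p = 0.0107) and D430042O09Rik fell (-0.19, adjusted p = 0.0117), so the calls in this stretch were of both signs. Ankrd55, next to Il6st, fell (log2 fold change -0.21, edgeR adjusted p = 0.0337), opposite to Il6st. No neighbor of Il6ra, Il27ra or Il12rb1 was called.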

How the data were processed

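Bulk RNA-seq libraries of sorted splenic Tregs were analyzed, with 3 WT and 3 KO libraries grouped by the sample labels. The table that the authors deposited holds unnormalized counts for each gene in the 6 libraries. The submitters' processing notes name HISAT2, DESeq2 and the build mm10; how the counts were assigned to genes is not given in the sources used here. Library totals were 133283969 to 209041812 counts, but counts of 1 (620 entries) were rarer than counts of 4 (2579 entries), so the number of independent fragments behind a value is not known and no counting interval is given.

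Genes were filtered with filterByExpr, scaled by TMM (factors 0.987 to 1.014) and tested with edgeR 4.0.16 by its quasi-likelihood F-test (newer method, robust) in R 4.3.3, with Benjamini-Hochberg adjustment over 17307 genes. Log2 CPM for permutation tests had a prior count of 2. Exon lengths and positions came from the GENCODE annotation of GRCm38. The tests were tested on simulated data, with changes larger than those of most receptor genes called here. Smaller changes were not simulated. Alternatives were other scalings and filters, DESeq2 1.42.0, limma-voom (limma 3.58.1), the edgeR legacy method, the replicate number as a block, counts divided by 4, removal of immunoglobulin, haemoglobin, ribosomal protein and mitochondrial genes, and leaving out each library.

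The 10 receptor genes and the gene lists were chosen with earlier results of these data known. By rule, the text may name all 10, each partner chain, Janus kinase, STAT gene and tested neighbor (not every such result is reported here), Zfp335, markers at 0, and from each list at most the 6 called genes with the largest change. Outside this rule, Clcf1, Il33, Il27, Il12b, Batf, Slc9a4, Adam10 and Adam17, the strand-overlapping genes Gm42809 and Gm44876, Xist, Cd4 and Cd3e are named, as are Gata2, Cma1, Klrg1 and Icos. They were chosen after their values were seen. Protein sequences were not used here. The single-cell, ChIP-seq and human data of the study are not analysed here.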

Additional observations from a re-analysis of the deposited data

How the results depend on the processing

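Each receptor gene was refitted under 17 alternatives, and none changed sign. Il1r2 (0.66 to 0.74), Il6st (0.14 to 0.19), Il21r (0.11 to 0.16), Il1rl1 (-0.45 to -0.38), Il10ra (-0.45 to -0.40) and Il12rb1 (-0.25 to -0.21) kept their call under all of them, and Il27ra was called under none. Il6ra lost its call in 6 and Il18r1 in 5, and Il4ra gained one without WT replicate 1. Of the 10 genes, 5 were called lower, 3 without the filter on low counts (Il18r1 then had an adjusted p of 0.0548 and Il6ra of 0.0649) and between 3 and 5 when a library was left out. Genes called higher numbered 3, or 3 to 4 when a library was left out. These fits leave 1 group with 2 libraries. The cause was not tested. With library size in place of TMM, 61.4% of all calls were lower, against 50.1%, while the calls of the 10 genes stayed as they were.

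With the replicate number as a block, 3 receptor genes were called higher and 4 lower, as Il6ra lost its call (log2 fold change -0.090, adjusted p = 0.052), and no other of the 10 calls changed. Deviations of same-numbered libraries correlated at 0.028, 0.0082 and 0.033 across genes, not every library correlated best with its own number, and the numbers were not treated as pairs. Gene lengths also matter for levels, as given above. How many independent fragments lie behind the totals is unknown, so they give no precision for low values.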
